A study of Mus musculus with 8 samples.

Results

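The genes of the complement cascade described here were chosen by name. They are the C1q chain genes C1qa, C1qb and C1qc, the central components C3 and C4b, the alternative pathway genes Cfb and Cfd, and the receptor genes C3ar1 and C5ar1, so 9 of the 38293 gene identifiers in the deposited count table. Of the 9 genes, 8 had enough counts to be tested, and Cfb had not. The tissue was the left ventricle of C57BL/6J mice 3 days after cardiac ischemia-reperfusion, a temporary block of blood flow to part of the heart muscle. There were 4 libraries that came from ventricles injected with a UPy-PEG hydrogel, which is a polymer gel used as a depot, loaded with antimiR-195, an inhibitor of miR-195 (a microRNA). The other 4 libraries came from ventricles given the same gel without drug, called hydrogel here. Every ventricle in both groups was injured and received 2 injections of 10 µl of gel into the heart muscle. No uninjured and no gel-free ventricle is among the libraries analysed here, so levels describe injured, injected muscle. The drug is the only difference between the groups that the labels give, and they name no batch, sex or pairing. The sample titles are numbered in blocks, hydrogel before antimiR-195, so any effect of order cannot be told apart from the drug. The labels do not say whether each library is a separate animal, so the p-values given here rest on the spread between libraries, which may be technical.

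Complement is a cascade of plasma and tissue proteins that marks dead cells and microbes for removal. C1q binds to its targets and starts the classical pathway, which cleaves C4 and then C3. The alternative pathway, in which factor B and factor D build a convertase, amplifies the cleavage of C3. The fragments C3a and C5a attract and activate leukocytes through their receptors. Macrophages are a main source of C1q in tissues, while hepatocytes, fibroblasts and macrophages can all make C3.

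Total gene counts per library were 16872968 to 17781061 with antimiR-195 and 17519941 to 22751753 with hydrogel alone. AntimiR-195 replicate 2 stood apart from the rest: its correlations of log2 CPM across genes with the other libraries were 0.944 to 0.970, against 0.978 to 0.991 for all other pairs, and results that rest on it are given with and without it. Cardiomyocyte markers summed to 56160 to 64950 CPM with antimiR-195 and 54500 to 62070 CPM with hydrogel alone (CPM, counts scaled to the library's total gene counts after TMM scaling), so the libraries were heart muscle as labelled. The 10 macrophage markers were all measured and summed to 1170 to 1927 CPM and 1322 to 1893 CPM in the same order. In these bulk samples fewer cells of a type and less RNA per cell cannot be told apart.

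Levels between genes were compared per length, in RPKM (reads scaled to gene length and library size, as the authors deposited them). C1qb averaged 160.5 ± 52.8 RPKM over the 8 libraries (SD), C1qa 138 ± 38.5, C1qc 75.6 ± 22.9 and C3 40.4 ± 4.89 RPKM. The order of C1qb, C1qa, C1qc and C3 was the same in 8 of 8 libraries. The receptor genes followed, with C5ar1 at 14.6 ± 2.24 and C3ar1 at 12.6 ± 2.84 RPKM, and C5ar1 was the higher of the pair in 5 of 8 libraries, so their order was within the spread. C4b lay at 4.94 ± 0.746 RPKM and Cfd at 1.92 ± 1.23 RPKM, with C4b above Cfd in 7 of 8 libraries. Transcripts of the recognition molecule C1q were thus the most abundant of the set in length-scaled reads, and those of Cfd the lowest of the 8 tested genes.

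MicroRNAs such as miR-195 repress mRNAs mainly through pairing of their seed with sites in the 3′ UTR. The mature miR-195a-5p, from RefSeq on GRCm38.p6 at chr11:70235062-70235082 on the plus strand, and the single match found among the complement genes are shown because such a site is where an inhibitor of miR-195 could bear on a transcript. In the first the seed, bases 2 to 8, is in capitals, and in the second, from the 3′ UTR of C3ar1 in the GENCODE M21 transcripts, the bases that pair with it.
miR-195a-5p: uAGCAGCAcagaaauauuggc
C3ar1 site: aacacctcttaTGCTGCTgatctttgtag

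The C3ar1 match lies at bases 1402 to 1408 of a 3′ UTR of 2685 bases. No match of 7 bases or more was found in the 3′ UTRs of C1qa, C1qb, C1qc, C4b, Cfb, Cfd or C5ar1, and C3 had no 3′ UTR of at least 50 bases in that annotation. Of 12890 tested genes with a 3′ UTR, 31.3% held such a match. A match is a description of letters and does not show that miR-195 acts there.

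The comparison of antimiR-195 with hydrogel alone asks which of these transcripts differed when the gel carried the inhibitor. C3, the central protein of the cascade, lay lower with antimiR-195, by 0.31 ± 0.12 on the log2 scale (SE). C4b, the classical pathway component next to it in the cascade, also had a lower mean. The C1q chains, Cfd and both receptor genes had group means within their spread. None of the 8 tested genes passed an adjusted p of 0.05, each having an adjusted p of 0.9999 by the quasi-likelihood test of edgeR, and neither did any of the 13972 genes tested (0%). At an unadjusted p under 0.05, the share of all tested genes was 1.27%, and 1 of the 8 complement genes, C3, was among them.

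**Figure D1:**
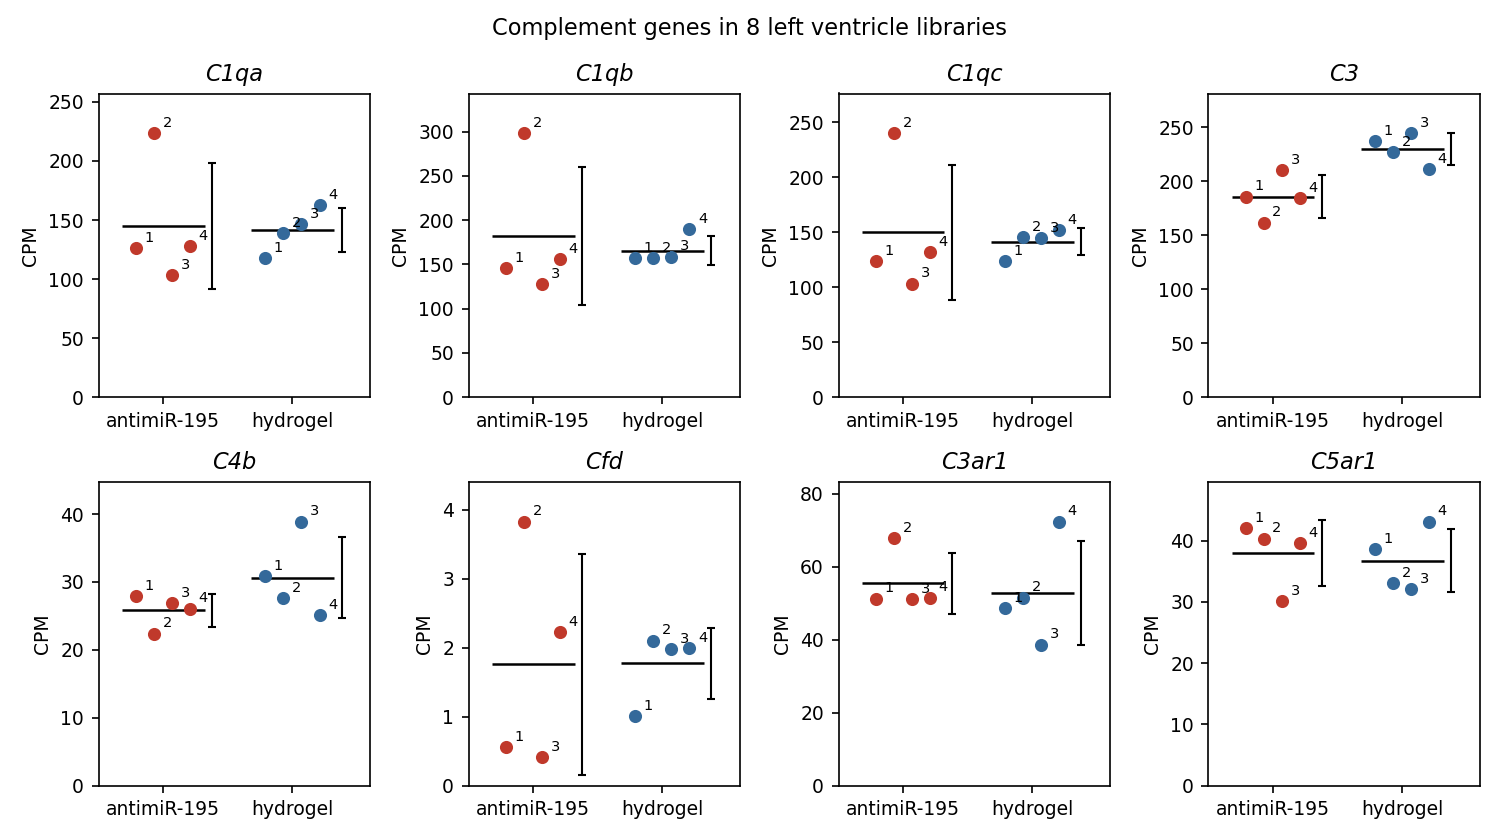
CPM of the 8 tested complement genes in each library, antimiR-195 left and hydrogel right, with the replicate number beside each point, the group mean as a line and the SD as a bar (n = 4 each). AntimiR-195 replicate 2 is the highest of 8 libraries for C1qa, C1qb, C1qc and Cfd and the lowest for C3 and C4b.

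The C1q genes encode the A, B and C chains that assemble into the C1q molecule, which also binds apoptotic cells and promotes their uptake by phagocytes. They lie side by side on chromosome 4, minus strand, within 18.7 kb of GRCm38 at 136880129 to 136898803. C1qa had 126, 224, 103 and 128 CPM in antimiR-195 replicates 1 to 4, against 118, 139, 146 and 162 CPM in hydrogel replicates 1 to 4. The range of the antimiR-195 libraries enclosed that of the hydrogel libraries, because replicate 2 was the highest of all 8 and replicate 3 the lowest. The log2 fold change was 0.04 ± 0.22 (SE), with a 95% interval of -0.45 to 0.53.

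C1qb had 146, 298, 128 and 156 CPM in antimiR-195 replicates 1 to 4, against 157, 157, 159 and 190 CPM in hydrogel replicates 1 to 4, a log2 fold change of 0.14 ± 0.24 (95% interval -0.39 to 0.67). C1qc had 123, 240, 103 and 132 CPM with antimiR-195, against 124, 145, 145 and 152 CPM with hydrogel alone, a log2 fold change of 0.08 ± 0.23 (95% interval -0.43 to 0.60). All 3 chains showed the same arrangement: 1 antimiR-195 library at 1.75 to 1.90 times the median of the other 7 libraries, and the remaining antimiR-195 libraries at or below most hydrogel libraries. Without antimiR-195 replicate 2 the direction was the opposite one, with log2 fold changes of -0.26 for C1qa, -0.22 for C1qb and -0.25 for C1qc and unadjusted p of 0.065, 0.0758 and 0.0509, each with an adjusted p of 0.999 by the quasi-likelihood test of edgeR. In that comparison of 3 with 4 libraries the C1qb values did not overlap, but narrowly so. They were 128 to 156 CPM with antimiR-195 and 156.6 to 190 CPM with hydrogel alone. C3 did not overlap either, so 2 of the 8 genes were separated, against 3.08% of all genes in the same comparison. Replicate 2 was left out because it stood apart, and its value alone made the C1qb groups overlap. The C1qb separation thus came from that choice and tests nothing.

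**Figure D2:**
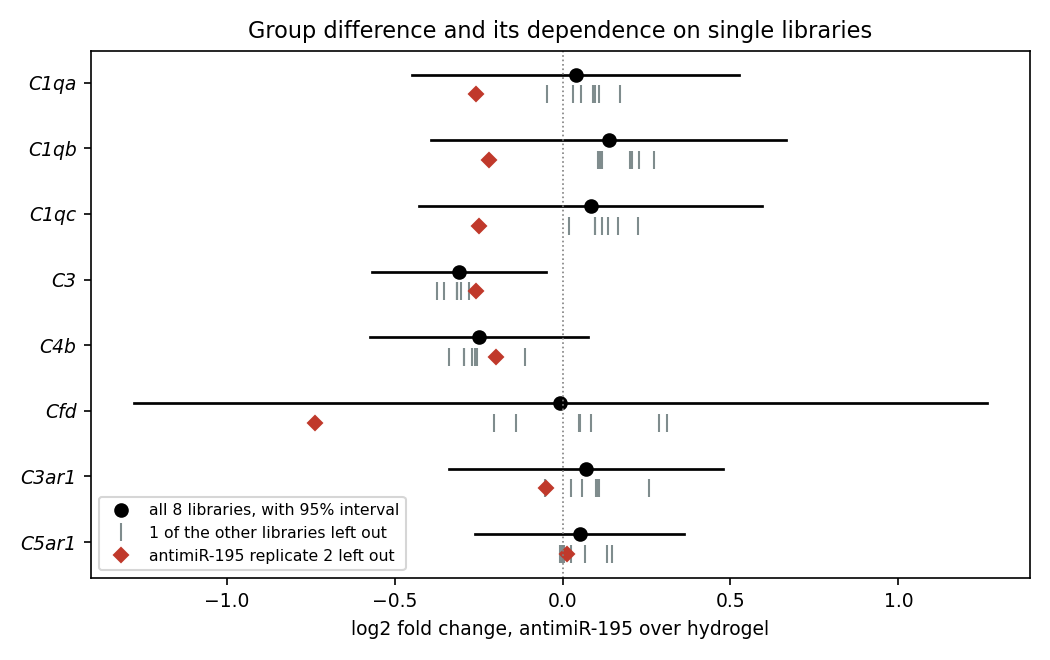
Log2 fold change of each complement gene, antimiR-195 over hydrogel, with its 95% interval over all 8 libraries (black), and the values with 1 library left out (ticks; red diamonds where antimiR-195 replicate 2 is left out). C1qa, C1qb and C1qc lie above 0 with all libraries and at -0.26, -0.22 and -0.25 without that library, while C3 stays between -0.38 and -0.26.

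The chains varied closely together over the 8 libraries, with antimiR-195 replicate 2 the highest for each. Their ratios were not constant, and that of C1qb to C1qa in RPKM ran from 1.036 to 1.275 among the hydrogel libraries. The SD over the 8 libraries of the log2 ratio of C1qa to C1qc was 0.07, that of C1qb to C1qc 0.09 and that of C1qa to C1qb 0.11. For comparison, the median SD of the log2 ratio of C1qa to 11056 other genes, those whose mean log2 CPM was 2 or more, was 0.39. In RPKM the ratio of C1qb to C1qa was 1.18 ± 0.0706 with antimiR-195 and 1.13 ± 0.104 with hydrogel alone (SD, n = 4 each). That of C1qc to C1qa was 0.550 ± 0.0230 with antimiR-195 and 0.541 ± 0.0290 with hydrogel alone, so the chain ratios differed between the groups by less than the spread of the libraries. By the SD of the log2 ratio the genes most like C1qa were C1qc, Rhog and Medag, with SDs of 0.07, 0.08 and 0.10. Rhog and Medag were thus closer to C1qa than C1qb was, so such likeness was not particular to the chains. Those most like C1qb were Lsp1, C1qc and Ms4a7, with SDs of 0.08, 0.09 and 0.10. Ms4a7 is a macrophage membrane protein gene and Lsp1 encodes a leukocyte actin-binding protein.

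Macrophage markers were also highest in sum in antimiR-195 replicate 2, at 1927 CPM, close to 1893 CPM in hydrogel replicate 4. The 3 chains together reached 396, 762, 335 and 416 CPM in antimiR-195 replicates 1 to 4, against 399, 441, 450 and 504 CPM in hydrogel replicates 1 to 4. Set against the summed macrophage markers, this was 31.3%, 39.5%, 28.6% and 29.9% with antimiR-195 and 25.4%, 29.2%, 34.0% and 26.6% with hydrogel alone, and the groups overlapped. Lyz2 made up most of the marker sum in every library, at 1324 of 1927 CPM in antimiR-195 replicate 2, so these shares largely follow Lyz2. Csf1r, the receptor of the macrophage growth factor CSF1, had 84.4, 93.0, 94.8 and 101 CPM with antimiR-195, against 101, 108, 97.9 and 122 CPM with hydrogel alone. Csf1r was therefore not high in antimiR-195 replicate 2, where the C1q sum was 8.20 times the Csf1r value, while the ratio was 3.53 to 4.69 in the other 7 libraries. The 10 macrophage markers did not move together in that library: 5 were the highest of 8 there, 4 lay within the range of the other 7 libraries and 1 was the lowest. The 5 highest were Trem2, a lipid and apoptotic cell receptor, Ms4a7, Fcgr1, Cx3cr1 and Lyz2, with Trem2 at 73.4 CPM against 29.3 to 47.9 CPM in the other 7 libraries. Mertk, a receptor for uptake of apoptotic cells, was the lowest, at 6.72 CPM against 10.01 to 20.1 CPM. Of the 10 resident macrophage markers, 2 were the highest there and 5 the lowest, among them Cd163 at 7.05 CPM against 15.1 to 35.3 CPM. Of the 7 neutrophil markers, S100a8, S100a9 and Retnlg were the highest there, Csf3r, Cxcr2 and Mmp8 lay within the range of the others, and Ly6g was at 0 in all libraries. The neutrophil sum of 71.7 CPM, against 25.4 to 36.2 CPM elsewhere, rested on S100a8 at 20.4 CPM and S100a9 at 31.9 CPM, and without that pair it was 19.4 CPM, against 11.1 to 20.8 CPM elsewhere. The 7 cardiomyocyte markers split there too: Tnnt2, Actc1 and Tnni3 were the highest, Myh6, Ryr2 and Pln the lowest, and 1 lay within. Gene lengths behind the RPKM values were 923 to 1931 bases for Cfd and the C1q genes, the highest in that library. They were 5143 and 5695 bases for C3 and C4b, the lowest there, and 4305 and 2570 bases for C3ar1 and C5ar1, which lay within the range. The part of cell types, transcript length or library quality in the C1q values was not tested.

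The stretches upstream of C1qb and C1qc are shown because these neighbouring genes varied closely together. That of C1qb ends at the RefSeq start and that of C1qc at the GENCODE start. They come from RefSeq (GRCm38.p6, minus strand), at chr4:136886201-136886450 for C1qb and chr4:136893066-136893164 for C1qc, where the window was shortened by the 151 bases that lie inside the gene in the GENCODE M21 annotation. Capitals mark a match to GAGGAAG, a core motif of the myeloid transcription factor PU.1, read on either strand.
C1qb upstream: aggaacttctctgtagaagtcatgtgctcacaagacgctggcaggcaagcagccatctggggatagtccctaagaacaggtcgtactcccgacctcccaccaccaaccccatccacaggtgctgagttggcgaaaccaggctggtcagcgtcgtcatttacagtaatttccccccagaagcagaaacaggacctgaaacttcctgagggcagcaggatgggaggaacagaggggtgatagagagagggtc
C1qc upstream: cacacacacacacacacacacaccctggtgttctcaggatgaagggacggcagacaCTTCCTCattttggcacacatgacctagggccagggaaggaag

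The match in C1qc lies 37 to 43 bases upstream of the GENCODE start, on the opposite strand. It was the single match among the 6 complement genes with a RefSeq promoter entry, which were C1qb, C1qc, C3, Cfd, C3ar1 and C5ar1, searched over 250 bases upstream of the RefSeq start. Of 27025 promoters, 10.4% held GAGGAAG in the same window. None of the 6 held the STAT motif TTCNNNGAA, found in 7.18% of promoters, or the interferon response motif of GAAA, 2 further bases and GAAA, found in 3.04%. These motifs can share bases with one another, and the absence of the letters says nothing about binding of the factor.

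C3 is the protein on which all complement pathways converge, and its cleavage gives the anaphylatoxin C3a and the opsonin C3b. C3, on chromosome 17 at 57203970 to 57228136, had 186, 162, 210 and 185 CPM in antimiR-195 replicates 1 to 4, against 237, 227, 245 and 211 CPM in hydrogel replicates 1 to 4. Every antimiR-195 library was below every hydrogel library, but narrowly so, at 210.5 CPM for the highest antimiR-195 library and 211.2 CPM for the lowest hydrogel library. The means were 186 ± 19.8 CPM with antimiR-195 and 230.2 ± 14.6 CPM with hydrogel alone (SD, n = 4 each), a log2 fold change of -0.31 ± 0.12 (95% interval -0.57 to -0.05). By the quasi-likelihood test of edgeR the unadjusted p was 0.0235 and the adjusted p 0.9999. The exact permutation test of its mean log2 CPM gave p = 0.0286, two-sided, the smallest it can give with 4 against 4 libraries. Groups that do not overlap always give this p, so it restates the separation and adds no support. The same test was run on each of the 8 genes, and the next smallest p was 0.229, for C4b. C3 was the 1 gene of the 8 whose groups did not overlap, against 1.07% of all genes tested. Genes lower with antimiR-195 at an unadjusted p under 0.05 made up 0.444% of all genes tested.

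The lower C3 did not rest on 1 library for its direction, since its log2 fold change lay between -0.38 and -0.26 with any single library left out. The unadjusted p was then 0.0124 to 0.059, above 0.05 without hydrogel replicate 1 or hydrogel replicate 3. AntimiR-195 replicate 2, the library highest in C1q, was the lowest in C3, so the ratio of C1qb to C3 in RPKM was 8.71 there and 2.88 to 4.25 in the other 7 libraries. Fibroblast markers, 8 of 8 measured, summed to 6951, 8462, 6792 and 6724 CPM with antimiR-195 and 6619, 6260, 5439 and 8533 CPM with hydrogel alone. C3 as a share of that sum was 2.68%, 1.91%, 3.10% and 2.75% with antimiR-195 and 3.59%, 3.63%, 4.50% and 2.48% with hydrogel alone, and on that scale hydrogel replicate 4 lay among the antimiR-195 libraries. Most of the fibroblast sum was collagen mRNA, with Col1a1, Col3a1 and Col1a2 at 2633, 2304 and 1858 CPM in antimiR-195 replicate 2. Col1a1, Col1a2 and Tcf21 were the highest of the 8 libraries there, and Pdgfra, Dcn and Lum the lowest. The other 2 fibroblast markers lay within the range of the other libraries. As a share of the summed macrophage markers, mostly Lyz2, C3 was 8.40% to 17.98% with antimiR-195 and 11.2% to 18.5% with hydrogel alone. Hepatocyte markers, which would carry liver C3, summed to 0.710 to 24.9 CPM with antimiR-195 and 8.94 to 23.2 CPM with hydrogel alone, and were lowest in antimiR-195 replicate 2. The part of these cell types in the C3 difference was not tested. The genes whose profile was most like that of C3 were Mgme1, Ubox5 and Pramef8, with SDs of the log2 ratio of 0.07, 0.07 and 0.08, against a median of 0.28 over all genes compared.

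**Figure D3:**
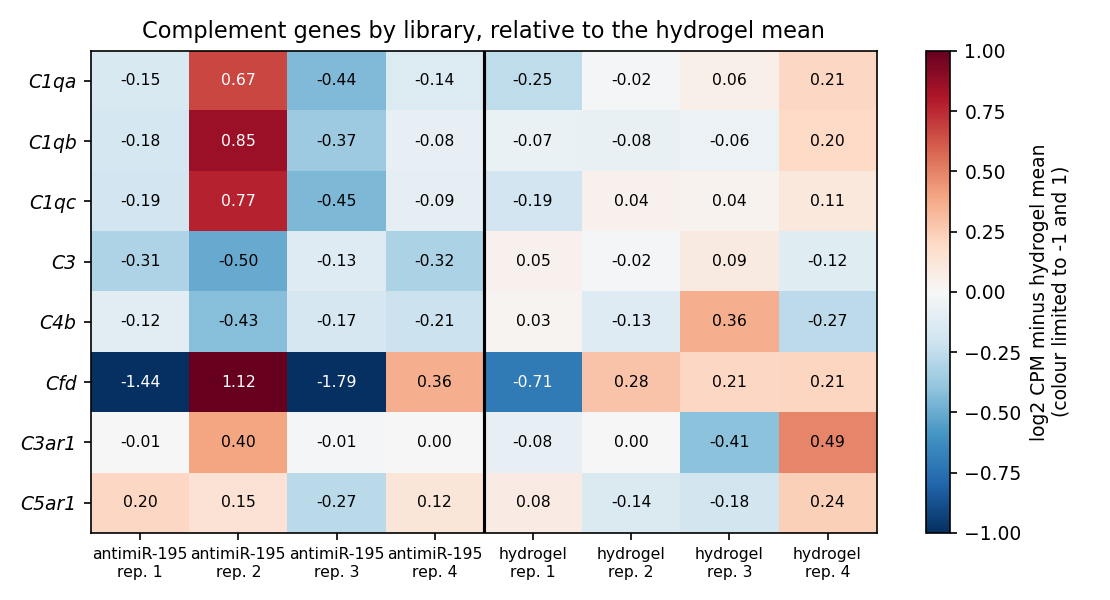
Log2 CPM of each tested complement gene in each library minus the mean of the 4 hydrogel libraries, with antimiR-195 left of the line. In antimiR-195 replicate 2 the C1q genes are 0.67 to 0.85 above that mean and C3 and C4b 0.50 and 0.43 below it, and C3 is below it in all 4 antimiR-195 libraries.

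C4b encodes complement C4, which C1s cleaves to build the classical C3 convertase. C4b, on chromosome 17 at 34728380 to 34743882, had 27.9, 22.4, 26.9 and 26.1 CPM in antimiR-195 replicates 1 to 4, against 30.9, 27.7, 38.9 and 25.1 CPM in hydrogel replicates 1 to 4. The groups overlapped, since hydrogel replicate 4 lay below 3 of the antimiR-195 libraries. The log2 fold change was -0.25 ± 0.15 (95% interval -0.57 to 0.08), with an unadjusted p of 0.12, and it was -0.11 without hydrogel replicate 3, the highest library, and -0.34 with an unadjusted p of 0.0484 without hydrogel replicate 4. The SD of the log2 ratio of C4b to C3 over the libraries was 0.15, against a median of 0.31 for C4b over all genes compared. The near-identical gene C4a shares 34.6% of the 50-base windows of C4b transcripts and had 2 to 10 counts per library, so the C4b value is uncertain where reads match both copies. The genes most like C4b were Coq2, Phyh and Slc16a1, with SDs of 0.07, 0.08 and 0.08. Each was closer to C4b than C3 was, so such likeness was not particular to complement genes.

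Factor B and factor D are the proteases of the alternative pathway. Cfb could not be read from these counts. It had 2 counts in hydrogel replicate 1 and 0 in the other 7 libraries, where 0 allows up to 0.138 to 0.179 CPM by counting error alone. Of the 2825 exonic bases of Cfb in GENCODE M21, 79.5% are also exons of Gm20547, an annotated gene on the same strand that spans Cfb and part of C2 and that had 0 counts in all 8 libraries. Whether reads in exons of both genes were set aside as ambiguous was not tested, so the level of Cfb is treated as not measured.

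Cfd encodes factor D, also called adipsin because adipocytes secrete it. Cfd had 0.560, 3.83, 0.419 and 2.22 CPM in antimiR-195 replicates 1 to 4, against 1.004, 2.10, 1.98 and 2.00 CPM in hydrogel replicates 1 to 4, from 7 to 70 counts per library. The antimiR-195 libraries spanned the whole range of the hydrogel libraries and beyond on both sides. The log2 fold change was -0.01 ± 0.57, with a 95% interval of -1.28 to 1.26, so a difference of more than a doubling in either direction was within the error. Without antimiR-195 replicate 2 it was -0.74. None of the 6 adipocyte markers, Adipoq and Plin1 among them, reached 1 CPM in any library, and they summed to 0.598 to 1.48 CPM with antimiR-195 and 1.004 to 1.94 CPM with hydrogel alone. No gene was closely like Cfd: the nearest were Tnni2, Myl4 and H1fx, with SDs of the log2 ratio of 0.56, 0.61 and 0.63.

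The receptors of C3a and C5a sit on macrophages, monocytes and neutrophils. C3ar1, on chromosome 6 at 122847138 to 122856161, had 51.3, 67.9, 51.1 and 51.6 CPM in antimiR-195 replicates 1 to 4, against 48.8, 51.5, 38.7 and 72.4 CPM in hydrogel replicates 1 to 4. Of the antimiR-195 libraries 3 were almost equal, and the hydrogel libraries reached both below and above all of them. The log2 fold change was 0.07 ± 0.18 (95% interval -0.34 to 0.48). C3ar1 is the gene of the set with a miR-195 seed match. The fold change was -0.05 without antimiR-195 replicate 2, -0.05 without hydrogel replicate 3 and 0.26 without hydrogel replicate 4. The genes most like C3ar1 were Mpeg1, which encodes the macrophage pore-forming protein perforin-2, Laptm5, which encodes a lysosomal membrane protein of haematopoietic cells, and Hps1, each with an SD of 0.08.

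C5ar1, on chromosome 7 at 16246743 to 16259540, had 42.0, 40.3, 30.1 and 39.6 CPM in antimiR-195 replicates 1 to 4, against 38.6, 33.0, 32.1 and 43.1 CPM in hydrogel replicates 1 to 4. The groups overlapped, and the log2 fold change was 0.05 ± 0.14 (95% interval -0.26 to 0.36), with a value under 0.01 in size without antimiR-195 replicate 1, hydrogel replicate 2 or hydrogel replicate 3. In RPKM the ratio of C3ar1 to C5ar1 was 0.881 ± 0.149 with antimiR-195 and 0.852 ± 0.137 with hydrogel alone (SD, n = 4 each). The SD of the log2 ratio of the receptor genes over the 8 libraries was 0.22, so they varied together less closely than the C1q chains did.

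Over all 9 genes, 3 of the 8 tested had a negative log2 fold change, against 47.6% of all genes tested, with a median of 0.045 against 0.01 over all genes.

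The rest of the cascade was read from 50 other complement genes listed by role, of which 31 were tested. Initiating proteins had 1 positive and 7 negative log2 fold changes, with a median of -0.07. The positive one was C2, at 0.20 ± 0.31 (SE). Of its exonic bases 42.8% are also exons of Gm20547, so its level is uncertain. Properdin and the terminal components had 1 positive and 2 negative, with a median of -0.12, and regulators 4 positive and 7 negative, with a median of -0.10. Receptors and binding proteins had 4 positive and 5 negative, with a median of -0.06. In all, 21 of the 31, or 67.7%, were negative, against 47.6% of all genes tested, and the medians stand beside 0.01 over all genes. All these genes were read in the same libraries, so their signs are not independent and the shares do not test a shift. None passed an adjusted p of 0.05, and 2 had an unadjusted p under 0.05, C1s1 and Vsig4, against 1.27% of all genes.

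**Figure D4:**
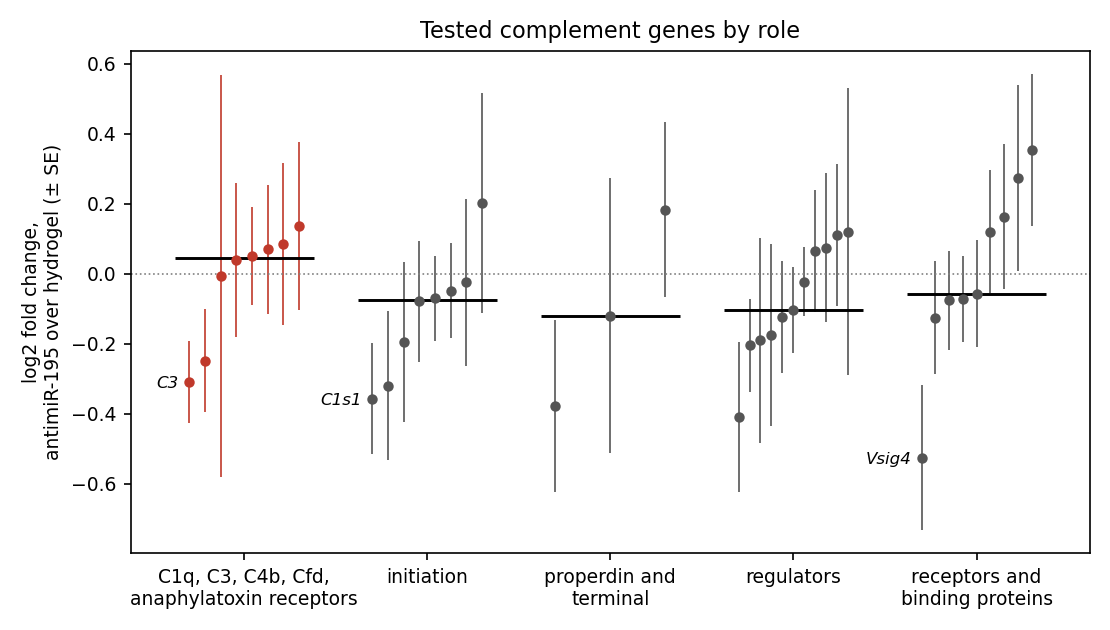
Log2 fold change ± SE, antimiR-195 over hydrogel, of the 8 tested genes described above (red) and of 31 other tested complement genes (grey) by role, with the median of each group as a line. C3, C1s1 and Vsig4, each with an unadjusted p under 0.05, are named and lie at -0.31, -0.36 and -0.53.

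C1s1 encodes C1s, the protease of the C1 complex that cleaves C4. C1s1 had 32.2, 27.1, 37.0 and 37.6 CPM in antimiR-195 replicates 1 to 4, against 41.6, 44.8, 52.3 and 32.8 CPM in hydrogel replicates 1 to 4, a log2 fold change of -0.36 ± 0.16 with an unadjusted p of 0.0469. Only hydrogel replicate 4 lay within the range of the antimiR-195 libraries, and the p was above 0.05 without antimiR-195 replicates 1 or 2 or hydrogel replicates 1, 2 or 3. C1s1 and C3 shared the lowest library, antimiR-195 replicate 2, and the highest, hydrogel replicate 3.

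Vsig4 encodes CRIg, a receptor of C3b on resident macrophages. Vsig4 had 1.79, 2.46, 2.15 and 2.56 CPM in antimiR-195 replicates 1 to 4, against 3.59, 3.13, 3.74 and 2.44 CPM in hydrogel replicates 1 to 4, a log2 fold change of -0.53 ± 0.21 with an unadjusted p of 0.0289. Its groups overlapped through hydrogel replicate 4, and the p was above 0.05 without antimiR-195 replicates 1 or 3 or hydrogel replicates 1 or 3. The 10 resident macrophage markers summed to 549, 602, 500.0 and 547 CPM with antimiR-195 and 626, 575, 613 and 641 CPM with hydrogel alone. Of these markers 8 had a negative log2 fold change and 2 a positive one, with a median of -0.23 against 0.01 over all genes. The negative share of all genes tested was 47.6%. These markers were also read in the same libraries, so their signs are not independent. F13a1 was at -0.37 ± 0.10 with an unadjusted p of 0.00419 by the quasi-likelihood test of edgeR. It was the 1 marker of the 10 under 0.05, against 1.27% of all genes tested. Lyve1 was at -0.42 ± 0.19 and Timd4 at -0.61 ± 0.32 (SE). The positive markers were Pf4 at 0.20 ± 0.30 and Cbr2 at 0.06 ± 0.17. Pf4 made up 169.7 CPM of the sum in antimiR-195 replicate 2, against 53.7 to 96.7 CPM in the other 7 libraries. With all 10 markers the sums of the groups overlapped. Without Pf4 the sum was 433 to 478 CPM with antimiR-195 and 499.9 to 548 CPM with hydrogel alone. Gas6 was the largest part of that sum, with means of 187 CPM with antimiR-195 and 217 CPM with hydrogel alone. Pf4 was left out after its values were seen, so that separation came from the choice and tests nothing. The part of these cells in the Vsig4 values was not tested.

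Of the other role lists, the regulator with the smallest p was Cfi, which encodes factor I, the protease that inactivates C3b, at 1.399, 1.42, 1.08 and 1.48 CPM with antimiR-195 and 1.85, 1.61, 2.08 and 1.61 CPM with hydrogel alone. Its groups did not overlap, against 1.07% of all genes tested. Among the other complement genes, overlap was read only for C1s1, C8g, Cfi and Vsig4. These were picked by their p, so the share over all genes is not a like comparison for Cfi. The log2 fold change of Cfi was -0.41 ± 0.21 from 18 to 45 counts, with an unadjusted p of 0.0834 by the quasi-likelihood test of edgeR. Among terminal components it was C8g, the gamma chain of C8, at a log2 fold change of -0.38 ± 0.25 with an unadjusted p of 0.153. Among abundant regulators, Clu, which encodes the chaperone clusterin, had a log2 fold change of 0.07 ± 0.21 and Serping1, the C1 inhibitor gene, one of -0.10 ± 0.12 (SE).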

How the data were processed

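Per the labels' protocols, TRIzol was used to extract RNA, and a stranded TruSeq kit to make polyadenylated RNA libraries. Tools named by the submitters' processing notes are STAR, HTSeq and DESeq, with the build GRCm38 and no versions. For the annotation release and the strand setting of the counting, nothing is given in the sources. The authors deposited whole-number counts per Ensembl gene, per library and as a series table, with 0 differing cells, and RPKM values. Of 38293 identifiers, 36345 had a symbol in GENCODE M21. The HTSeq summary lines stayed out of library sizes; reads outside genes were 6.38% to 7.55% and ambiguous reads 0.772% to 1.05% of the uniquely aligned reads, and alignments to more than 1 place were 42.1% to 47.8% of the whole table, with the top value in antimiR-195 replicate 2.

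Groups came from the drug field, with replicates numbered in accession order. Genes passing filterByExpr were scaled by TMM (factors 0.953 to 1.04) and tested with edgeR 4.0.16 (R 4.3.3) by glmQLFTest over 8 libraries without covariates, two-sided, with Benjamini-Hochberg adjustment over 13972 genes. The 9 genes, the pathway and marker lists and the tests were chosen with earlier results of these data known. All 9 genes are named; of other pathway genes, those with an unadjusted p under 0.05 and the smallest p of each role list, and by likeness the 3 genes with the smallest SD of the log2 ratio (log2 CPM, prior count 2). Clu, Serping1 and the single markers given values were chosen after their values were seen. Fitting functions were tested on simulated data. Intervals and floors (3 counts) cover counting error only where stated per library. Alternatives were RLE and upper-quartile factors, no filter, DESeq2 1.42.0, limma 3.58.1 (voom with quality weights, and trend on log2(RPKM + 0.1) or log2(RPKM + 1), with and without a filter), and each library left out.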

Additional observations from a re-analysis of the deposited data

Results flagged for a closer look

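The 16 sets examined were each the 4 libraries of 1 group for 1 gene. In 4 of them the highest or lowest library stood apart from the other 3 by more than Dixon's 95% value. Chance flags about 1 in 20 independent sets. These sets share the same libraries and hold genes that vary together, so the share flagged cannot be set against that rate. C1qb was high in antimiR-195 replicate 2 at 298 CPM, as was C3ar1 at 67.9 CPM in the same library. C1qb was also high in hydrogel replicate 4 at 190 CPM, and Cfd was low in hydrogel replicate 1 at 1.004 CPM. The part of single libraries in these values was not tested beyond leaving each out.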

How the results depend on the processing

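No gene passed an adjusted p of 0.05 with all libraries or under any of the 16 alternatives, in the whole table or among the other complement genes; 178 genes had an unadjusted p under 0.05, and 104 to 440 under the alternatives, with 193 in DESeq2. C3 and C4b stayed lower with antimiR-195 under all 16, at -0.38 to -0.26 and -0.34 to -0.11. With limma-voom and quality weights, C1qa, C1qb and C1qc were at -0.14, -0.12 and -0.14, and with upper-quartile factors Cfd was at 0.00240; the cause was not tested. Cfd, at -0.01 with all libraries, moved further to -0.43 with limma-voom and to -0.42 with limma-trend on log2(RPKM + 0.1). With 1 library left out, C1qa ranged from -0.26 to 0.17, C1qb from -0.22 to 0.27, C1qc from -0.25 to 0.22, Cfd from -0.74 to 0.31, C3ar1 from -0.0535 to 0.26 and C5ar1 from -0.0079 to 0.15, each changing sign. Alternatives for C1s1, C8g, Cfi and Vsig4 were added after seeing the data, and all 4 kept their direction. No paired analysis was possible because the replicate numbers follow accession order. The 4 libraries a group limit precision: the median SE of a log2 fold change was 0.17 for genes whose mean log2 CPM was 0 or more. Cfb had too few counts to be tested.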
